A study of Mus musculus with 474 samples.

Results

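Skeletal muscle of Diversity Outbred mice was compared between outbreeding generation 17 and generation 18, gene by gene, with the sex of the animals as covariate. A library belonged to generation 17 or 18 by the number in its title that follows the sex letter, and its column in the count table was found by the animal number. The rule gave 187 libraries, 39.5% of those in the series, of which 94 were of generation 17 and 93 of generation 18. Generation 17 held 48 females and 46 males, and generation 18 held 45 females and 48 males.

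The series is an RNA-seq survey of skeletal muscle, gastrocnemius in the study's methods, in which each mouse gave 1 library. Diversity Outbred mice are an outbred stock kept by random mating of descendants of a fixed set of inbred founder strains, so every animal carries its own mosaic of founder genomes. All animals of both generations received the same high-fat, high-sugar diet, labelled as 45% fat, and no group carried an engineered allele or a further treatment. The labels give neither age nor harvest date, though the study's methods state a common age at harvest for its Diversity Outbred mice. The reading of the title number as a generation is an assumption, because the study's text names only some of these numbers as generations.

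Successive generations of an outbred stock are different animals, bred at different times from much the same pool of founder alleles. They may also be housed and harvested at different times, which the labels do not give. Skeletal muscle holds several transcript programmes that respond within minutes to hours to contraction, feeding, stress hormones and handling. Heat shock chaperones are induced when unfolded proteins release heat shock factor 1, immediate-early genes are switched on by calcium, cyclic AMP and growth factor signals without new protein synthesis, and glucocorticoid target genes follow the hormone receptor and insulin.

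The libraries were deep. Summed expected counts ran from 51.3 to 165.7 M (82.5 ± 17.8 M, SD, n = 94) in generation 17 and from 48.3 to 122.2 M (80 ± 14.1 M, SD, n = 93) in generation 18. The mean of generation 18 was lower by less than the spread between libraries (difference of means −2.52 M, 2-sided permutation test with 100000 resamples, p = 0.287). The tissue label was met by its defining markers in every library: Myh4, the fast myosin heavy chain, lay between 43300 and 93060 CPM (counts per M of the TMM-scaled library total) and Acta1, skeletal actin, between 12550 and 33030 CPM, and each of 10 muscle markers was at or above the 99.6th percentile of genes in every library. A few libraries stood apart. The library of female DO022 (generation 17) held 760 CPM of Alb, a liver transcript, and that of male DO084 (generation 17) held 297.3 CPM of Tchh, a hair follicle transcript. In addition, 3 libraries crossed a cutoff on sex-linked RNA and are called libraries against their sex label below. For females the cutoffs were under 10 CPM of Xist or above 0.1 CPM of the Y-linked Ddx3y. For males they were above 5 CPM of Xist or under 10 CPM of Ddx3y. Female DO153 (generation 18) had 0.331 CPM of Xist and 0 CPM of Ddx3y. Male DO193 (generation 18) had 13.4 CPM of Xist beside 94 CPM of Ddx3y. Female DO048 (generation 17) had 0.134 CPM of Ddx3y beside 123 CPM of Xist. The full pattern of the other sex, as Xist and Ddx3y give it, was seen in none of them. In the count table the columns of DO048 and of DO308, a generation 19 male, stand in exchanged places relative to the sample list and were matched by name, so what is said of DO048 rests on its column name. Animal numbers ran from 21 to 70 in generation 17 females, from 71 to 120 in generation 17 males, from 121 to 191 in generation 18 females and from 171 to 220 in generation 18 males, so generation cannot be told apart from the order in which animals were numbered, nor from anything that changed along that order.

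Of 17660 genes tested, 183 passed an adjusted p of 0.05 (1.04% of the genes tested), 117 of them higher in generation 18 (0.663%) and 66 lower (0.374%). The differences were small. The median absolute log2 difference of the genes that passed was 0.24, and 23 of them (0.13% of the genes tested) reached 1.5-fold, 13 upwards and 10 downwards. Of the 183 genes, 172 were protein-coding, 181 had the same sign in females and males fitted apart (55.1% of all genes did), and 147 had the same sign in all 5 blocks of library numbers (10.5% of all genes did). A block is a stretch of at most 96 consecutive library numbers, begun anew after a gap in the numbers, and holds 10 to 25 libraries of generation 17 and 16 to 24 of generation 18. Sexes and blocks are parts of the libraries that gave the 183 genes, so these shares describe them and do not test them anew. The rises of at least 1.5-fold included the heat shock genes Hspa1b, Hspa1a and Dnajb1, the immediate-early genes Nr4a2 and Fosb, Apold1 and Irs2. Several large differences rested on single libraries. Of the rises, Gm13680 had 35.8% of its summed CPM in DO191, with medians of 0.0895 and 0.107 CPM. Of the 10 large falls, 7 were not called without DO022 and DO084, an alternative added after seeing the data, and since both are generation 17 libraries picked for high Alb or Tchh, this puts the rises to no like check. These 7 were Tchh and Gjb2, of which DO084 held 94.3% and 19.6% of the summed CPM, and Alb, Pzp, Pigr, Itih4 and Apoh, of which DO022 held between 24.9% and 88.7%. The remaining 3 were Mrgprg and the pseudogenes Rpl17-ps10 and Gm12254, with 22.3% of Rpl17-ps10 in DO048 and 42.3% of Gm12254 in DO044. The medians of both pseudogenes were higher in generation 18, at 0.134 and 0.184 CPM for Rpl17-ps10 and 0.175 and 0.184 CPM for Gm12254, against the sign of their fitted differences. Tchh had medians of 0.0671 and 0.0478 CPM, and its log2 difference was −4.10 with all libraries (adjusted p = 1.85e-07) and −0.70 without them (adjusted p = 0.188). Alb, at medians of 0.178 and 0.134 CPM, gave −3.16 (adjusted p = 0.000378) and −0.53 (adjusted p = 0.584).

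**Figure D1:**
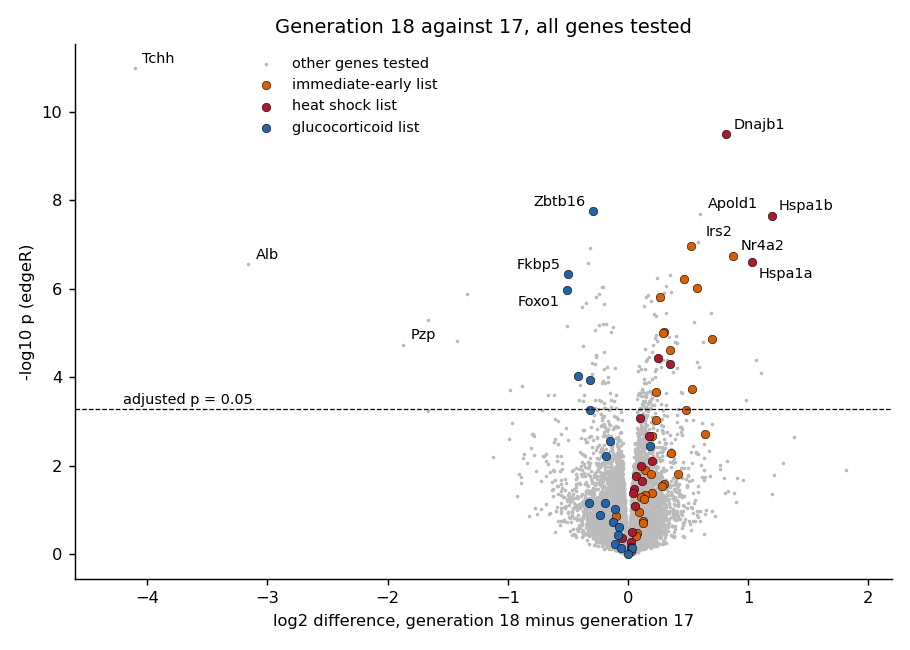
Each point is a gene, with the fitted log2 difference (generation 18 minus generation 17) on the x axis and −log10 of the unadjusted p on the y axis, and the dashed line marks an adjusted p of 0.05. Filled colours mark the heat shock, immediate-early and glucocorticoid lists: called members of the first 2 lists lie to the right of 0, and those of the glucocorticoid list lie to the left.

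Some heat shock chaperones were higher in generation 18. Of 18 chaperones and co-chaperones tested, 5 rose and 0 fell, beside 1.04% of all genes called, and the list's median log2 difference was 0.10, beside 0.0025 over all genes. Dnajb1, the co-chaperone that feeds clients to HSP70 and restrains heat shock factor 1, ran from 4.31 to 85.5 CPM with a median of 9.65 in generation 17, and from 5.01 to 84.7 CPM with a median of 14.5 in generation 18. Both generations covered nearly the same range, yet 70 of the 93 generation 18 libraries lay above the generation 17 median. The rise was 1.76-fold (log2 0.82 ± 0.12, SE, adjusted p = 2.85e-06), the lowest p after that of Tchh. Hspa1b, an inducible HSP70, ran from 4.75 to 291.9 CPM (median 15.9) in generation 17 and from 4.23 to 867 CPM (median 30.9) in generation 18. The floor of the range was shared, and 3 generation 18 libraries exceeded the highest of generation 17. The fitted rise was 2.29-fold (log2 1.20 ± 0.20, adjusted p = 7.98e-05). Its neighbour and near copy Hspa1a moved alike, from a median of 17.4 to 30.8 CPM (log2 1.03 ± 0.19, adjusted p = 0.000378). The genes lie side by side on chromosome 17 (GRCm38), and 58.8% of the 50-base windows of the Hspa1a transcript also occur in that of Hspa1b, so the split of reads between them is uncertain.

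The promoters of the HSP70 pair are also near copies, and they are shown because both carry the binding motif of heat shock factor 1. The RefSeq sequences are the 250 bases upstream of each start (GRCm38.p6, minus strand, chr17:34972157-34972406 for Hspa1a and chr17:34959239-34959488 for Hspa1b), 5′ to 3′, with the motif GAANNTTC in capitals. They differ at 3 positions.
Hspa1a: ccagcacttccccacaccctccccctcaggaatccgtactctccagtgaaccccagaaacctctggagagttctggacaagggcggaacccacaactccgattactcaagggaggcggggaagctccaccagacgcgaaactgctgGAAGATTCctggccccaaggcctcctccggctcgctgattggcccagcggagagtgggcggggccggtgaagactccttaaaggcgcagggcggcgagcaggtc
Hspa1b: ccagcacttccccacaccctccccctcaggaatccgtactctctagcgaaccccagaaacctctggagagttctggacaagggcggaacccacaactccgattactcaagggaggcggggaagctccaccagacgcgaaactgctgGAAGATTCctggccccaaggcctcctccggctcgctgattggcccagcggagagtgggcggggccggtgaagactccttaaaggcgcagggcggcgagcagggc
GAANNTTC, which reads the same on both strands, occurred in 6.69% of 32851 RefSeq promoters of this length, and GAANNTTC or its inverse TTCNNGAA occurred in 12.8% of promoters and in at least 1 promoter of 14.5% of 27025 genes. Among the heat shock genes, 8 of the 14 with a promoter sequence held either motif, namely Dnaja1, Dnajb4, Hspa1a, Hspa1b, Hspb1, Hspd1, Hspe1 and Hsph1, and 3 of the 4 that rose and had a promoter did so, Dnaja1 only in the window of an alternative start. A match describes letters in this window and no measured binding.

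Cytosolic chaperones of the same response rose less. Hsp90aa1, the stress-inducible HSP90, had a median of 79.4 CPM (46.9 to 260) in generation 17 and of 95.1 CPM (47.8 to 541.3) in generation 18 (log2 0.35 ± 0.08, adjusted p = 0.0104). Dnaja1, another HSP70 co-chaperone, went from a median of 55.5 CPM (37.4 to 117) to 61.9 CPM (34.9 to 179), a log2 difference of 0.25 ± 0.06 (adjusted p = 0.00898). It overlaps Smu1, and use of strand in counting is not stated, so its value is uncertain. Among the 13 members that did not pass were Hsph1 (log2 0.18 ± 0.06, adjusted p = 0.108), the small heat shock protein Hspb1 (0.20 ± 0.07, adjusted p = 0.213), the constitutive Hspa8 (0.03 ± 0.04, adjusted p = 0.890) and the mitochondrial chaperonin Hspd1 (0.06 ± 0.03, adjusted p = 0.302). In the 19 endoplasmic reticulum stress genes, which answer unfolded protein in another compartment, 0 passed (edgeR, lowest adjusted p = 0.265, median log2 0.026), 3 had an unadjusted p under 0.05, and DESeq2 and limma called 0.

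The heat shock difference was carried more by some animals than by others. In stretches of 10 animal numbers, the median of Hspa1b lay between 10.3 and 25.2 CPM in generation 17 females, between 11.7 and 31.5 CPM in generation 17 males and between 16.3 and 23.6 CPM in the stretches of generation 18 females with at least 6 animals. In generation 18 males it was 36.2 CPM in animals 171 to 180 and then 66.0, 57.6, 82.3 and 60.2 CPM. The course of Dnajb1 differed in part. Its stretch medians lay between 7.50 and 10.98 CPM in generation 17 and between 8.91 and 13.03 CPM in those of generation 18 females with at least 6 animals. In animals 171 to 180 it was at 9.68 CPM, within the range of generation 17, where Hspa1b already lay above every stretch of generation 17, and it was at 22.5, 20.2, 22.7 and 15.1 CPM afterwards. In males the fitted log2 difference of Dnajb1 was 0.99 and in females 0.65, and this gap between sexes did not pass (interaction 0.33 ± 0.24, adjusted p = 0.958). Over the whole list the median was 0.043 in females alone and 0.15 in males alone, a gap that was not tested. By block of library numbers, the log2 difference of Dnajb1 was 0.39, 1.61, 0.83, 1.09 and 0.79, and that of Hspa1b 1.07, 1.71, 2.11, 0.66 and 0.95. The median over the whole list was 0.17, 0.24, 0.30, −0.037 and 0.0087, near 0 in the last 2 blocks.

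**Figure D2:**
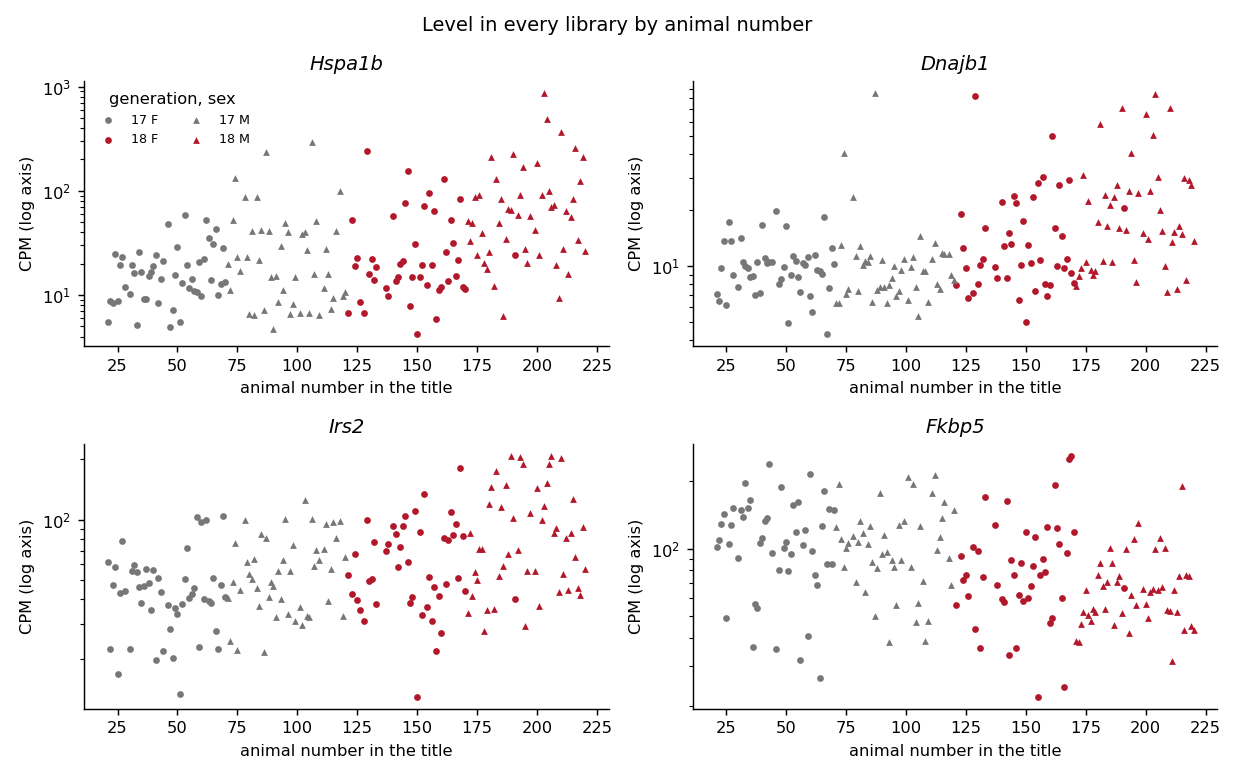
Each point is a library of generation 17 (grey) or 18 (red), female (circle) or male (triangle), by its animal number (x axis) and its level in CPM on a log axis (y axis). In males above number 180 the medians per stretch of 10 animals run from 57.6 to 82.3 CPM for Hspa1b and from 15.1 to 22.7 CPM for Dnajb1, while the highest single library of Dnajb1 is a generation 17 male at 85.5 CPM.

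Calls among immediate-early genes were all upwards. Of 33 tested, 11 rose, 0 fell and 22 did not pass, 32 had a positive difference, and the median log2 difference was 0.24, beside 0.663% of all genes called higher and a median of 0.0025 over all genes. The block medians were all positive, between 0.18 and 0.29. Nr4a2, an orphan nuclear receptor induced through cyclic AMP, had the largest rise, from a median of 2.08 CPM (0.676 to 36.2) to 3.51 CPM (0.917 to 26.0), a 1.83-fold change (log2 0.87 ± 0.16, adjusted p = 0.000319). Ranges overlapped widely, and 70 of 93 generation 18 libraries lay above the generation 17 median. Its stretch medians were between 1.46 and 2.89 CPM in generation 17 and between 2.35 and 4.95 CPM in the stretches of generation 18 with at least 6 animals. Those of animals 131 to 140 and 171 to 180, at 2.35 and 2.58 CPM, lay within the range of generation 17. In the first block of library numbers the log2 difference of Nr4a2 was 0.0037, against 0.94 to 1.63 in the others.

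Nr4a2 is shown with its promoter because the short cyclic AMP response motif TGACG stands there 4 times, counting both strands (TGACG and CGTCA, in capitals). The 250 bases upstream of its RefSeq start lie at chr2:57124004-57124253 (GRCm38.p6, minus strand).
Nr4a2: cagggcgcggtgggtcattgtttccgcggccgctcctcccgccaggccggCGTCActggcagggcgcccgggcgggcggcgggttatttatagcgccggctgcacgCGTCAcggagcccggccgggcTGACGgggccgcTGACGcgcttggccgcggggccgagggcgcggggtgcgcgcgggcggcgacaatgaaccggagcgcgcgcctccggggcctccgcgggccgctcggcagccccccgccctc
At least 1 TGACG on either strand occurred in 17.8% of 32851 promoters and in at least 1 promoter of 19.8% of 27025 genes, and at least 4 in 0.137% of promoters. Of the 26 immediate-early genes with a promoter sequence, 15 held the motif, and so did 7 of the 8 that rose, namely Btg2, Csrnp1, Fosb, Junb, Klf2, Klf4 and Nr4a2. The full palindrome TGACGTCA was found in 1.55% of promoters.

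The other risers were AP-1 subunits, small early-response regulators and Krüppel-like factors. Fosb, an AP-1 subunit, ran from 0.113 to 5.47 CPM (median 0.629) in generation 17 and from 0.0962 to 7.32 CPM (median 1.04) in generation 18 (log2 0.70 ± 0.16, adjusted p = 0.00430). It was a rare transcript in both. Junb, another AP-1 subunit, ran from 2.03 to 19.8 CPM (median 4.87) and from 1.48 to 50.1 CPM (median 5.95), a log2 difference of 0.58 ± 0.11 (adjusted p = 0.000785). Its highest libraries moved more than its median, and it overlaps Prdx2. Csrnp1, a nuclear protein induced by growth signals, went from a median of 6.08 CPM (1.55 to 14.8) to 8.64 CPM (3.0 to 23.9), with 11 generation 18 libraries above the highest of generation 17 (log2 0.52 ± 0.09, adjusted p = 0.000238). Sik1, a kinase that damps CREB coactivators after cyclic AMP signals, went from 34.9 CPM (13.1 to 82.8) to 43.9 CPM (18.8 to 129) (log2 0.47 ± 0.09, adjusted p = 0.000619). The remaining risers, Klf4, Fosl2, Klf2, Btg2, Arc and Ier2, had log2 differences between 0.24 and 0.53. Under other settings Fosb, Btg2 and Ier2 lost their call with all libraries of the series, and Arc and Ier2 in limma.

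Several well-known members did not pass. Fos went from a median of 9.53 CPM (2.60 to 61.4) to 12.5 CPM (2.57 to 89.3), a log2 difference of 0.48 ± 0.14 with an adjusted p of 0.0509. Egr1 (log2 0.36 ± 0.13, adjusted p = 0.173), Nr4a3 (0.30 ± 0.13, adjusted p = 0.338) and Atf3 (0.28 ± 0.13, adjusted p = 0.353) also had positive differences that did not pass. Nr4a1, the most abundant of its family in this tissue at a median of 137 CPM in generation 17, reached 162 CPM in generation 18 (log2 0.24 ± 0.07, adjusted p = 0.0701). Myc was the single member with a negative difference (log2 −0.10 ± 0.07, adjusted p = 0.618).

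**Figure D3:**
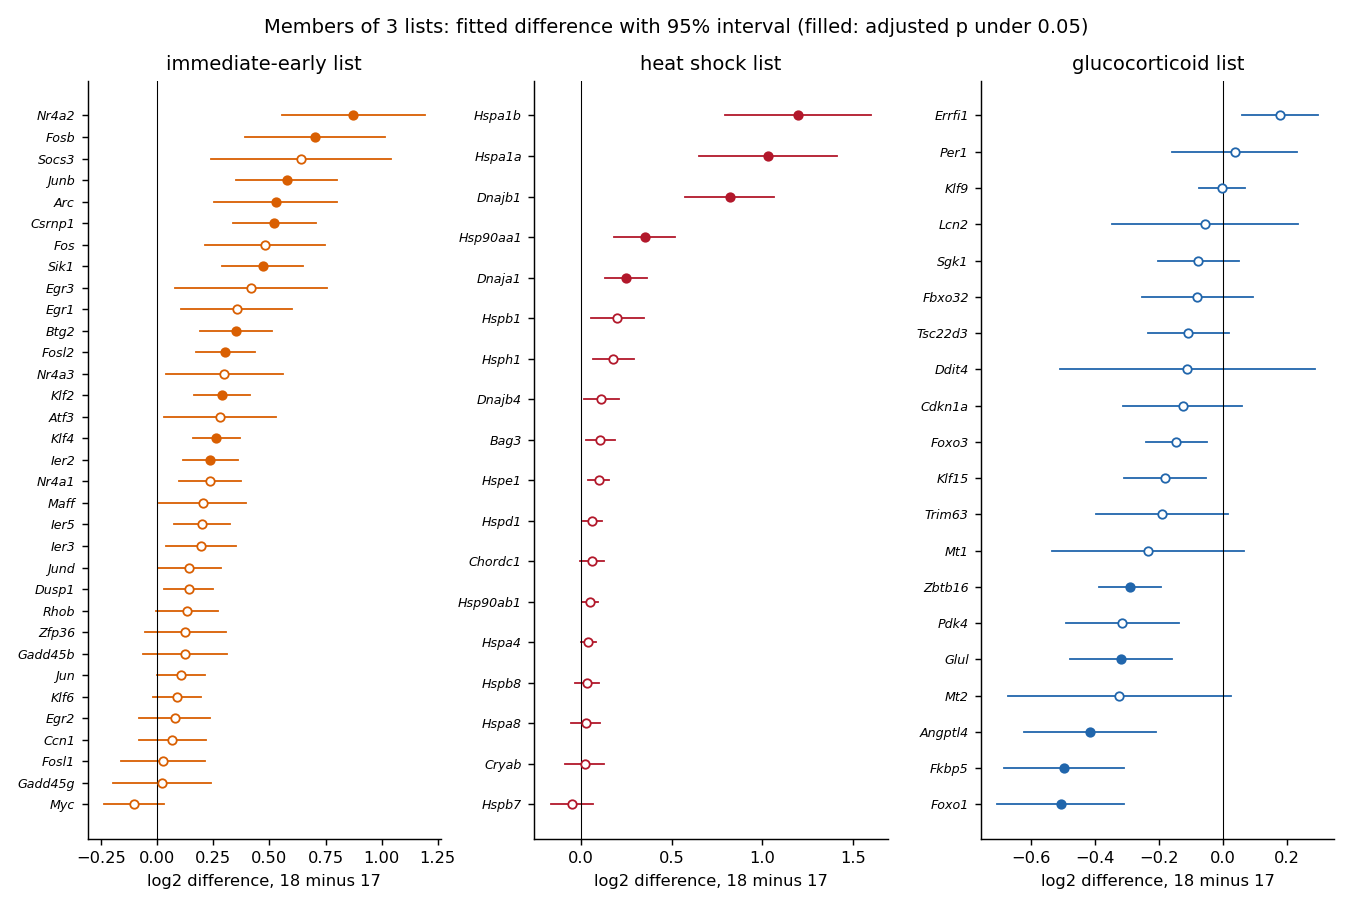
Fitted log2 differences (x axis, generation 18 minus 17) with 95% intervals for every tested member (y axis) of the immediate-early, heat shock and glucocorticoid lists, filled where the adjusted p was under 0.05. Filled points number 11, 5 and 5, and 32 of 33, 17 of 18 and 2 of 20 members lie to the right of 0.

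Some glucocorticoid-responsive genes were lower in generation 18. Of 20 genes on the list, which includes metallothioneins, 5 fell, 0 rose and 15 did not pass, 18 had a negative difference, and the median log2 difference was −0.16, beside 0.374% of all genes called lower. The block medians were −0.12, −0.15, −0.26, −0.018 and −0.24. Fkbp5, a co-chaperone of the glucocorticoid receptor and a direct target of it, ran from 26.6 to 237.02 CPM (median 106) in generation 17 and from 21.9 to 258.7 CPM (median 67.6) in generation 18. In generation 18, 15 of 93 libraries lay above the generation 17 median, although the highest library of all was of generation 18. The fall was 0.708-fold (log2 −0.50 ± 0.10, adjusted p = 0.000574). Zbtb16, a transcriptional repressor induced by glucocorticoids, was shifted alike in both sexes. It ran from 81.7 to 290.6 CPM (median 179) and from 80.3 to 263.2 CPM (median 148), with a log2 difference of −0.29 in females and −0.29 in males (both together −0.29 ± 0.05, adjusted p = 7.98e-05).

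Foxo1, the insulin-restrained transcription factor that drives fasting genes, ran from 25.3 to 208 CPM (median 65.4) in generation 17 and from 24.5 to 193 CPM (median 43.7) in generation 18 (log2 −0.51 ± 0.10, adjusted p = 0.000813). Of the 93 generation 18 libraries, 27 exceeded the generation 17 median. Its log2 difference was negative in every block, between −0.74 and −0.12. Angptl4, a secreted inhibitor of lipoprotein lipase induced by fasting and fatty acids, went from a median of 13.3 CPM (3.76 to 33.1) to 9.05 CPM (2.87 to 38.1) (log2 −0.42 ± 0.10, adjusted p = 0.0166). Glul, glutamine synthetase, went from 379.1 CPM (172 to 1073) to 309.4 CPM (126 to 801) (log2 −0.32 ± 0.08, adjusted p = 0.0189), a call that limma did not make (adjusted p = 0.0676). Fkbp5 overlaps Gm49799, Foxo1 overlaps Gm38034 and Glul overlaps Teddm2, so these values carry the same doubt about strand.

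Members of this list that did not pass included Mt1 (log2 −0.23 ± 0.15, adjusted p = 0.607) and Mt2 (−0.32 ± 0.18, adjusted p = 0.499), the metal-binding metallothioneins, and the anti-inflammatory Tsc22d3 (−0.11 ± 0.06, adjusted p = 0.548). Per1, which is both a clock gene and a receptor target, gave 0.04 ± 0.10 (adjusted p = 0.942). The motif ACANNNTGT of the receptor was present in 5.84% of promoters and 6.76% of genes with a promoter sequence, in 5 of the 17 listed genes with a promoter sequence and in 1 of the 3 that fell and had a promoter sequence, Glul.

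**Figure D4:**
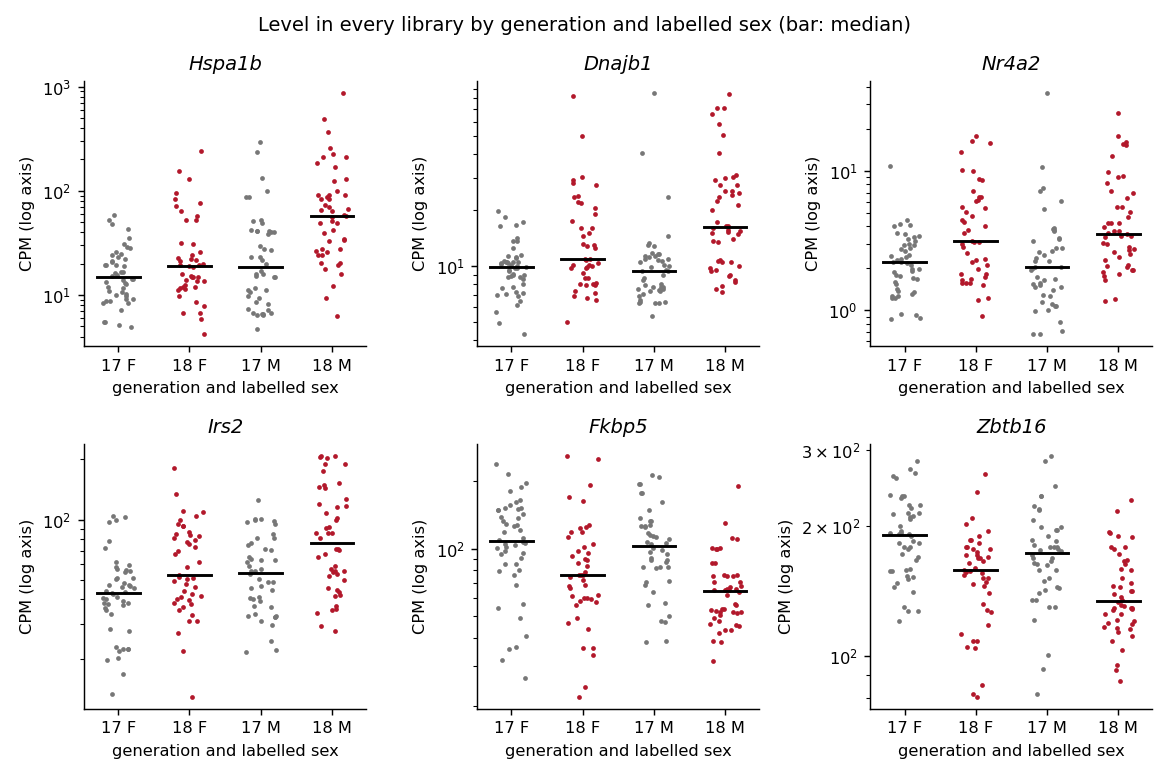
Levels of 6 genes in every library of both generations (y axis, CPM on a log scale), split by generation and labelled sex (x axis), with the bar at the median. Male medians go from 18.5 to 57.6 CPM for Hspa1b and female medians from 14.8 to 19.2 CPM, while Fkbp5 goes from 103 to 64.8 CPM in males and from 108 to 76.1 CPM in females.

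Few genes of fuel use changed. Irs2, the docking protein that passes the insulin receptor signal on and is itself repressed by insulin, ran from 13.4 to 125 CPM (median 46.6) in generation 17 and from 13.0 to 208 CPM (median 67.4) in generation 18. The lower ends coincided, while 14 generation 18 libraries exceeded the highest of generation 17. The rise was 1.5-fold (log2 0.59 ± 0.10, adjusted p = 0.000238), and it was positive in every block, at 0.46 to 0.76. Ptpn1, the phosphatase that switches the insulin receptor off, fell (median 21 to 18.5 CPM, log2 −0.20 ± 0.05, adjusted p = 0.00702). Of 22 insulin signalling genes, Irs2 rose and Foxo1 and Ptpn1 fell, beside 1.04% of all genes called. The other 19 did not pass, among them the glucose transporter Slc2a4 (log2 −0.05 ± 0.02, adjusted p = 0.336).

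Of 27 fatty acid oxidation genes, 0 rose and 2 fell, Angptl4 and Ucp3, beside 0.374% of all genes called lower, with a list median of −0.013. Ucp3, a mitochondrial uncoupling protein of muscle that follows fatty acid supply, went from a median of 257.9 CPM (80.7 to 501.1) to 210 CPM (72.6 to 469.3) (log2 −0.32 ± 0.08, adjusted p = 0.0186). Its call ended with library block as covariate (adjusted p = 0.0524), without extreme totals (0.0589) and in limma (0.0714). Pdk4, which shuts pyruvate out of the mitochondrion in the fasted state, went from 1754 CPM (458.95 to 3836) to 1358 CPM (450 to 4308) without passing (log2 −0.32 ± 0.09, adjusted p = 0.0511). Ppp1r3c, which targets protein phosphatase 1 to glycogen, went from 1209 CPM (333.3 to 2300) to 943 CPM (490.7 to 2579) and was the single called gene among 21 of glycolysis and glycogen (log2 −0.30 ± 0.07, adjusted p = 0.0103). Plin4, a lipid droplet coat protein, fell by 0.28 on the log2 scale (adjusted p = 0.00301), the single call of 17 white adipocyte genes. It overlaps Hdgfl2. A further 4 genes were picked after their values were seen: Txnip, a glucose-induced inhibitor of glucose uptake (log2 −0.17 ± 0.04, adjusted p = 0.0209), Lpin1, a phosphatidate phosphatase (−0.16 ± 0.04, adjusted p = 0.0171), Cblb, a ubiquitin ligase (−0.19 ± 0.04, adjusted p = 0.00248), and Xdh, xanthine dehydrogenase (−0.26 ± 0.06, adjusted p = 0.00865). All had lower medians in generation 18.

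Core machinery did not differ detectably. In edgeR, 0 of 18 tricarboxylic acid cycle genes passed, 0 of 80 nuclear oxidative phosphorylation genes, 0 of 15 mitochondrially encoded genes, 0 of 81 cytosolic ribosomal proteins, 0 of 75 mitochondrial ribosomal proteins and 0 of 37 proteasome subunits, with list medians between −0.015 and 0.031. Across these lists and both fibre type lists together, 7 genes had an unadjusted p under 0.05, and DESeq2 and limma called 0. Over all genes tested, the share with an unadjusted p under 0.05 was 11.2%. Ppargc1a, the coactivator of mitochondrial biogenesis, had medians of 81.6 and 82.2 CPM (log2 0.06 ± 0.10, adjusted p = 0.890). Of 11 slow and 15 fast fibre genes 0 passed. Myh7, the slow myosin, had medians of 1249 and 1123 CPM (log2 −0.07 ± 0.07, adjusted p = 0.775), and Myh4 had 71012 and 68800 CPM (−0.04 ± 0.03, adjusted p = 0.677). The ubiquitin ligases of atrophy, Fbxo32 (log2 −0.08 ± 0.09, adjusted p = 0.818) and Trim63 (−0.19 ± 0.11, adjusted p = 0.503), did not pass, and of 17 atrophy and autophagy genes only Foxo1 fell. Of 19 clock genes 1 was called, beside 1.04% of all genes. Bhlhe40, a repressor that is also an early-response gene, rose from a median of 65.1 CPM (27.1 to 141) to 83.4 CPM (30.5 to 191) (log2 0.36 ± 0.07, adjusted p = 0.000865). Dbp, an output gene with a strong daily rhythm, gave 0.40 ± 0.18 (adjusted p = 0.341).

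Markers of most other cell types gave few calls, to be read beside 1.04% of all genes called. The liver and hair lists were added after seeing the data. The liver list had 4 of 5 genes called lower and the hair follicle list its single tested gene, Tchh, calls that ended without DO022 and DO084, and the list of fibro-adipogenic progenitors had 1 of 14 called higher, Col15a1. With edgeR, 0 members passed of 17 macrophage, 15 endothelial, 10 smooth muscle and pericyte, 13 Schwann cell, 10 erythroid, 9 brown adipocyte, 9 lymphocyte, 3 neutrophil, 5 skin and 11 satellite cell markers. Of these 102 genes 14 had an unadjusted p under 0.05, beside 11.2% of all genes, limma called 0, and DESeq2 called Ms4a1, Jchain and Cd163. Signs were uneven in some lists. All 9 lymphocyte markers had negative differences (median log2 −0.49), as did 15 of 17 macrophage (−0.073), 9 of 10 erythroid (−0.15) and 15 of 17 white adipocyte markers (−0.11), and the 4 macrophage markers with an unadjusted p under 0.05 were all lower. The median summed level went from 70.1 to 56.5 CPM for the lymphocyte and from 142 to 132 CPM for the macrophage markers. The summed level of the endothelial markers ran from 598.6 to 993 CPM in generation 17 and from 600.5 to 1052 CPM in generation 18. That of the white adipocyte markers ran from 1252 to 4972 and from 1375 to 4587 CPM. Adipoq, the fat cell hormone, had medians of 12.8 and 13.5 CPM (log2 −0.06 ± 0.14, adjusted p = 0.922), Lep 6.07 and 5.52 CPM (−0.28 ± 0.20, adjusted p = 0.676) and Ucp1 0.0768 and 0.0818 CPM (0.22 ± 0.49, adjusted p = 0.927). Haemoglobin Hba-a1 was at 0 CPM in some libraries of each generation, with medians of 0.215 and 0.224 CPM (−0.38 ± 0.46, adjusted p = 0.839). In bulk tissue a change in the number of cells of a type and a change of RNA per cell cannot be told apart, and the part of cell composition in the differences above was not tested beyond these values and the covariate for fat and blood scores, with which 194 genes passed, 159 of them among the 183. All 16 MHC class I genes had negative differences, with a median of −0.17, and 0 passed in edgeR (lowest adjusted p = 0.157), with 3 at an unadjusted p under 0.05, 1 call in DESeq2 (H2-Q7) and 0 in limma. Of 32 interferon genes 28 were negative with a median of −0.13 and 0 passed in edgeR (lowest adjusted p = 0.219), with 5 at an unadjusted p under 0.05 and 0 calls in DESeq2 and limma.

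Few connective tissue genes were called, all upwards, beside 0.663% of all genes called higher. Of 16 collagens 15 had positive differences (median log2 0.10) and 1 rose, Col15a1, a basement membrane collagen (median 42.6 to 47.3 CPM, log2 0.15 ± 0.04, adjusted p = 0.0487). Of 10 tendon genes all had positive differences (median 0.13) and 1 rose, Kera, a small leucine-rich proteoglycan (median 8.45 to 10.3 CPM, log2 0.32 ± 0.08, adjusted p = 0.0309). Col1a1, the main fibrillar collagen, went from a median of 195 CPM (74.7 to 356.04) to 224.3 CPM (51.7 to 803) without passing (log2 0.27 ± 0.08, adjusted p = 0.0829). Picked after their values were seen, the collagen chaperone Serpinh1 (log2 0.20 ± 0.05, adjusted p = 0.0445) and the crosslinking enzyme Loxl2 (0.16 ± 0.04, adjusted p = 0.0498) rose close to the threshold. The calls of Col15a1, Kera, Serpinh1 and Loxl2 ended under 6, 2, 3 and 8 of 14 alternatives. The summed tendon level ran from 218 to 628.1 CPM in generation 17 and from 127 to 807 CPM in generation 18, a wider range in generation 18, and its part in the collagen differences was not tested.

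The endothelial list had 0 of 15 genes called and a median log2 difference of −0.0031. Some single genes known from endothelium were called all the same, and all but Apold1 were picked after their values were seen. Apold1, an endothelial early-response gene, went from a median of 4.85 CPM (1.39 to 17.1) to 7.69 CPM (2.75 to 29.1), and 76 of 93 generation 18 libraries exceeded the generation 17 median (log2 0.60 ± 0.10, adjusted p = 7.98e-05). Klf2, the shear stress factor of endothelium, went from 17.9 CPM (7.10 to 33.3) to 21.8 CPM (10.7 to 40) (log2 0.29 ± 0.06, adjusted p = 0.00342). Bcl6b, an endothelial repressor, went from 4.09 to 6.34 CPM (log2 0.45 ± 0.09, adjusted p = 0.000619), and Adamts1, a secreted protease, from 34.3 to 42.0 CPM (0.23 ± 0.06, adjusted p = 0.0171). No list of the Notch pathway was tested. Picked from it, the ligand Dll1 (log2 0.27 ± 0.07, adjusted p = 0.0121), the target Hes1 (0.37 ± 0.09, adjusted p = 0.0139) and the DNA-binding partner Rbpj (0.11 ± 0.03, adjusted p = 0.0498) rose, the call of Hes1 ending in limma and that of Rbpj under 7 of 14 alternatives. Vegfa, the endothelial growth factor, did not pass (0.14 ± 0.04, adjusted p = 0.0717).

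Other genes named by size or p had separate roles. Coq10b, a coenzyme Q binding protein of mitochondria, went from a median of 9.51 CPM (3.63 to 23.3) to 13.2 CPM (4.83 to 43.9), and 12 generation 18 libraries lay above the highest of generation 17 (log2 0.53 ± 0.10, adjusted p = 0.000238). The pseudogene Gm17971, which overlaps it, rose too (log2 0.69, adjusted p = 0.00157) and may share its reads. Otud1, a deubiquitinase, went from 26.9 CPM (7.36 to 106) to 35.8 CPM (8.17 to 196) (log2 0.55 ± 0.12, adjusted p = 0.00229). Azin1, the antizyme inhibitor that releases ornithine decarboxylase, rose from 36.1 to 42.6 CPM (log2 0.21 ± 0.05, adjusted p = 0.00520). It was the single call of 12 polyamine genes, beside 1.04% of all genes called.

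On the falling side, Slc7a8, an amino acid exchanger, went from 19.4 CPM (6.80 to 72.4) to 14.4 CPM (6.11 to 49.2) (log2 −0.51 ± 0.11, adjusted p = 0.00258). Sult1a1, a phenol sulfotransferase, went from 13.8 CPM (7.38 to 26.3) to 11 CPM (4.53 to 22.3), with 20 of 93 generation 18 libraries above the generation 17 median (log2 −0.31 ± 0.06, adjusted p = 0.000238). It overlaps Sgf29. The scaffold Cnksr3 (log2 −0.38 ± 0.08, adjusted p = 0.00125), the chemokine Ccl6 (−0.38 ± 0.09, adjusted p = 0.00534), Gm12394 (−0.38 ± 0.10, adjusted p = 0.0388) and Cep85l (−0.37 ± 0.10, adjusted p = 0.0324) completed the 10 steepest falls of genes at or above 1 CPM. The calls of Gm12394 and Cep85l ended under 3 and 4 of 14 alternatives. Cep85l overlaps Pln, the phospholamban gene. The G protein-coupled receptor Mrgprg, picked after its values were seen, had medians of 0.467 and 0.148 CPM (log2 −1.34 ± 0.27, adjusted p = 0.000865).

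The generation difference was then taken within each sex. In females alone 30 genes passed (0.17% of genes tested), 19 upwards and 11 downwards, and in males alone 75 passed (0.425%), 35 upwards and 40 downwards. The smaller samples of a single sex have less precision than the whole, and a larger count in males does not show a larger effect in them. The median absolute log2 difference of the 183 genes was 0.20 in females and 0.24 in males. The sex-by-generation interaction, which tests that question directly, passed for 20 genes (0.113%), none of them a member of the heat shock, immediate-early or glucocorticoid lists. Fkbp5 fell by 0.34 on the log2 scale in females and by 0.65 in males (interaction −0.31 ± 0.19, adjusted p = 0.952), and Irs2 rose by 0.48 and 0.69 (interaction 0.21 ± 0.21, adjusted p = 0.964). Of the 20 genes, 3 remained without the liver-rich and hair-rich libraries DO022 and DO084, the Y-linked Gm37158, Gm21244 and Gm47283. None of these 3 was called without the libraries against their sex label. Without DO022 and DO084 the calls of Gm12254, Eif2s3y, Pomt1 and Plet1 ended at interactions of 2.01, 1.81, 0.215 and −1.31, near those with all libraries. Limma on the deposited scores gave 0 genes, with 897 at an unadjusted p under 0.05.

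Levels in the remaining generations place generation 17 and 18 in the series, as a description without a test. For Dnajb1 the medians were 9.65 and 14.5 CPM in generations 17 and 18, and 17.4, 18.8 and 16.4 CPM in generations 19, 21 and 23. For Foxo1 they were 65.4 and 43.7 CPM and then 43.8, 44.0 and 45.3 CPM, and for Ucp3 257.9 and 210 CPM and then 190, 186 and 176 CPM. For Foxo1 generation 18 lay with the later generations, and for Dnajb1 and Ucp3 it lay between generation 17 and the later ones. Immediate-early genes were mixed. Csrnp1 was at 6.08 and 8.64 CPM and then at 9.37, 8.94 and 8.23 CPM, and Arc at 0.869 and 1.32 CPM and then at 1.47, 1.29 and 1.36 CPM, so that generation 18 lay near the later ones. Junb, Nr4a2, Btg2, Ier2, Klf2, Sik1, Klf4 and Fosl2 lay lower in generation 18 than in each later generation. In mean log2 CPM relative to generation 17, Junb was at 0.40 in generation 18 and at 1.57, 1.14 and 1.17 later. Nr4a2 was at 0.82 and then at 1.62, 1.26 and 1.25. Fosb was at 0.629 and 1.04 CPM in generations 17 and 18 and at 9.40, 4.05 and 4.67 CPM later, and Fos at 9.53 and 12.5 CPM and then at 50.2, 37.4 and 39.6 CPM, so that generations 17 and 18 both lay low for these genes.

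By the count of genes called, generation 17 against 18 was the fifth of the 10 pairs of generations, all of which share libraries with others. Generation 17 gave 901 genes against generation 19 (5.1% of those tested), 955 against 21 (5.41%) and 1621 against 23 (9.14%). Generation 18 gave 106 against 19 (0.6%), 61 against 21 (0.345%) and 204 against 23 (1.15%). The pairs without either gave 24 (19 against 21, 0.136%), 8 (19 against 23, 0.0451%) and 24 (21 against 23, 0.135%).

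**Figure D5:**
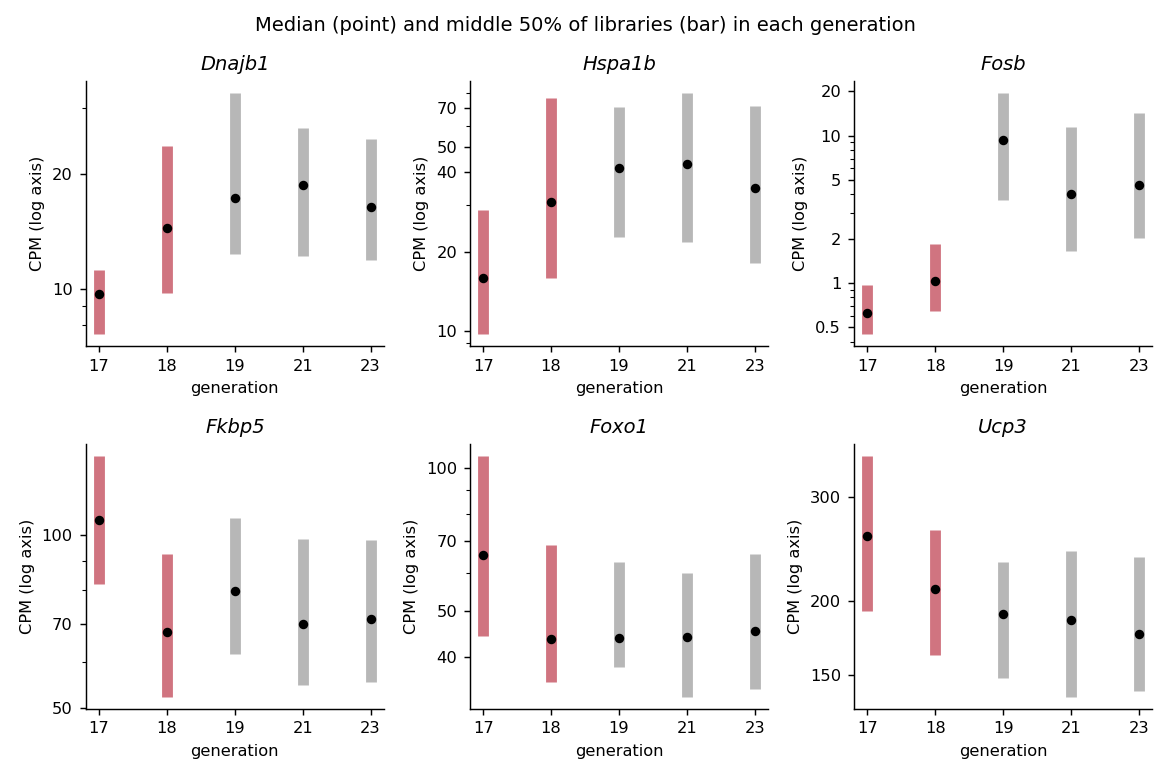
Median (point) and middle 50% of libraries (bar) of 6 genes in each generation (x axis), in CPM on a log axis (y axis), with generations 17 and 18 in red. Dnajb1, Foxo1, Fkbp5 and Ucp3 have their extreme median in generation 17, whereas Fosb is at or below 1.04 CPM in both red bars and at 4.05 CPM or above in the others.

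The called genes were spread over the genome. The share called was highest on chromosome 14 (12 genes, 1.99%) and lowest among the autosomes on chromosome 15 (3 genes, 0.471%), and 5 genes on chromosome X (0.887%) were called. Starts of called genes within 1 Mb of each other formed 26 runs with 54 genes, the longest of 3 genes, and 12 runs moved in a single direction. Besides Hspa1a with Hspa1b, these included Junb with Ier2 on chromosome 8 and Hes1 with Fam43a on chromosome 16.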

How the data were processed

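Polyadenylated RNA of each muscle was sequenced by the study. Per the methods, the authors joined both mates of each read pair as single reads, aligned them to a transcriptome of all founder strains and deposited expected counts per gene estimated by EMASE in GBRS. The sum per library counts read ends, strand use and software versions are not given in the sources used here, and 67.4% of the values were whole. Beside the counts the authors deposited scores, made from them with the variance stabilising transform of DESeq2, and gene positions in Mb. Starts and ends of 99.5% of the 20612 genes equalled GENCODE M21, so the build is GRCm38.

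Expected counts were rounded and tested with edgeR 4.0.16 in R 4.3.3 (quasi-likelihood F-test, TMM factors 0.887 to 1.29, filterByExpr with a minimum count of 10, sex as covariate, Benjamini-Hochberg adjustment over 17660 genes at 0.05). CPM are TMM-scaled, and log2 differences are generation 18 minus 17 with a prior count, ± SE. An interaction term tested sex by generation. The comparison of generation 18 with 17 was repeated with limma 3.58.1 on the deposited scores and DESeq2 1.42.0, and with other normalizations, filters, covariates and sets of libraries. The interaction was repeated with limma and without some libraries only. The fits within each sex and of the pairs of generations were not repeated. The test was also run on simulated data, with an outcome that is not given here. Intervals are 95%, and they and the p-values measure the spread between animals. The study also used wave as a covariate, which the labels do not give. No group shares replicate numbers with another.

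The comparison, its members and the gene lists were chosen with earlier results of these data known. Named genes were the 10 largest rises and falls among called genes of at least 1 CPM with the same sign in both sexes, the 10 lowest adjusted p, up to 4 called members of each list, a preset list of 18, and the 3 lowest interaction p. Others were added after their values were seen, and not all of them are marked so in place. Unmarked in the heat shock list are Hsp90aa1, Hsph1, Hspb1, Hspa8 and Hspd1. Unmarked in the immediate-early list are Klf4, Fosl2, Btg2, Arc, Ier2, Nr4a1 and Myc. In the glucocorticoid list they are Glul, Mt1, Mt2 and Tsc22d3. Fbxo32, Trim63, Slc2a4, Col1a1 and Vegfa are unmarked too. The liver and hair lists, and leaving out libraries above 100 CPM of Alb or Tchh, were added after seeing the data.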

Additional observations from a re-analysis of the deposited data

Results flagged for a closer look

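The generation difference itself differed between females and males, by the test of the interaction term in edgeR (log2, males minus females), for 20 genes. Most rested on single libraries. Genes of liver had an interaction of 4.89 for Alb, 2.96 for Pigr and 4.03 for Pzp. Female DO022 of generation 17 held 760 CPM of Alb, 31.7 CPM of Pigr and 74.7 CPM of Pzp, against next-highest values of 4.76, 1.38 and 0.487 CPM among generation 17 females. Without DO022 and DO084 the interactions were −0.55, 0.30 and 0.54, with adjusted p of at least 0.979.

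Genes of hair follicle and epidermis had interactions of −5.54 (Tchh), −3.24 (Pkp3), −3.23 (Krt79), −2.00 (Krt10), −2.25 (Krtdap), −2.38 (Col17a1), −3.84 (Dmkn), −1.59 (Plet1), −4.61 (Pkp1), −5.11 (Dsp) and −1.58 (Sbsn). Male DO084 of generation 17 was the highest generation 17 male for all of them, with 297.3 CPM of Tchh, 117 CPM of Dsp and 67.8 CPM of Krt10, and female DO167 of generation 18 held 58.6 CPM of Dsp and 70.1 CPM of Krt10. Without DO022 and DO084 none of the 11 passed, and Dsp, for example, had an interaction of −1.66 (adjusted p = 0.964). Plet1 changed less, to −1.31 (adjusted p = 0.349), and its highest library was DO147, a generation 18 female, at 3.68 CPM.

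Y-linked genes had interactions of 6.93 (Gm37158), 4.93 (Gm21244), 5.87 (Gm47283) and 1.80 (Eif2s3y). Female DO048 of generation 17 held 9.25, 2.16, 3.97 and 0.214 CPM of them, and the next-highest female of generation 17 held 0 CPM. The column of DO048 was matched by name, since it stands in exchanged places with that of a generation 19 male, DO308. Without the 3 libraries against their sex label the interactions were 0.00495, 0.108, 0.189 and −0.0246 (adjusted p = 1 each). The pseudogene Gm12254 had an interaction of 1.99, with 26.2 CPM in female DO044 and at most 0.717 CPM in the other females of generation 17.

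Pomt1, a mannosyltransferase of dystroglycan, was the single one of the 20 genes without a library far above the rest. Its medians were 12 CPM in generation 17 females, 11.2 CPM in generation 18 females, 9.76 CPM in generation 17 males and 10.6 CPM in generation 18 males (interaction 0.21 ± 0.05, adjusted p = 0.0442). Limma on the deposited scores did not call it (adjusted p = 0.577), nor did edgeR without DO022 and DO084 (interaction 0.215, adjusted p = 0.126). Without the libraries against their sex label edgeR still called it (interaction 0.22, adjusted p = 0.0318).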

How the results depend on the processing

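Under RLE size factors, total count scaling, no filter (20612 genes), a mean of at least 1 CPM (12607 genes), robust dispersion, a library block term, no sex term, fat and blood scores, and limma, 177, 182, 177, 174, 183, 176, 177, 194 and 139 genes passed, in place of 183. DESeq2 called 150 higher and 91 lower in 18, and all libraries of the series gave 142 higher and 109 lower. Without the 3 libraries against their sex label 138 passed, without 5 extreme totals 130, and without DO022 and DO084 183, of which 167 were shared. Within single sexes and blocks fewer genes passed: females alone 30 (19 up, 11 down), males alone 75 (35 up, 40 down), and blocks 1 to 5 alone 1 (0 up, 1 down), 3 (2, 1), 7 (0, 7), 4 (3, 1) and 0 (0, 0). The interaction gave 0 genes in limma, 16 without the 3 libraries against their sex label and 3 without DO022 and DO084. Heat shock calls ranged from 5 to 6, immediate-early calls from 8 to 13 and glucocorticoid calls from 5 to 7 over the alternatives with both sexes and all blocks. Fosb (adjusted p up to 0.0716), Ucp3 (0.0714), Col15a1 (0.0811), Kera (0.0775), Cep85l (0.0722), Gm12394 (0.0718), Hes1 (0.136), Btg2 (0.117), Arc (0.0731), Ier2 (0.161), Glul (0.0676), Serpinh1 (0.0852), Rbpj (0.0982), Loxl2 (0.0736) and Aldh18a1 (0.101) lost their call under at least 1 alternative, and Pdk4 gained it under 6, Fos under 5, Nr4a1 under 2 and Col1a1 under 1 of 14. The cause was not tested.

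Signs turned within single blocks or a sex for Tchh (block 3, 0.0252), Alb (block 2, 1.43, and block 5, 0.0726), Pzp (males 0.173, block 2 0.518, block 5 0.0206), Itih4 (block 2 0.00456, block 5 0.270), Apoh (block 1 0.131, block 4 0.0200) and Pigr (block 2 0.384, block 4 0.228), for Gm12254 in males (0.0400), with the main sign of Gm12254 and Rpl17-ps10 held in 3 of 5 blocks, and in block 4 for Col15a1 (−0.0197), Azin1 (−0.0855), Plin4 (0.0031), Serpinh1 (−0.0090) and Prodh (0.0621), and in block 1 for Adamts1 (−0.00302). The main sign of Gm13680, a rise, held in 3 of 5 blocks and that of Gjb2, a fall, in 4 of 5.

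No paired analysis was possible because every library is a different animal and the groups share no replicate numbers. The difference in total count was −0.0372 on the log2 scale (p = 0.362) and −0.112 M for medians (p = 0.955). Generation cannot be told apart from animal number, and wave, which the labels do not give, was not tested. At the lowest total 1 CPM stands for about 48.3 counts, and the effect of depth on the calls was not tested.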

Other observations

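Prodh and Aldh18a1 were picked after the values were seen, and no list of proline genes was tested. Prodh, which degrades proline, fell from a median of 6.36 CPM (2.05 to 15.5) to 5.19 CPM (1.91 to 13.3), a log2 difference of −0.28 ± 0.07 (edgeR adjusted p = 0.0104). Aldh18a1, which makes proline from glutamate, rose from 2.70 CPM (1.07 to 6.34) to 3.13 CPM (1.61 to 7.75), a log2 difference of 0.24 ± 0.06 (adjusted p = 0.0309), a call lost with all libraries of the series (adjusted p = 0.101). The retinoid enzymes Adh1 (log2 −0.27 ± 0.05, adjusted p = 0.000895) and Dhrs3 (−0.24 ± 0.05, adjusted p = 0.00252), likewise picked afterwards, fell.

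Across animals within a generation, after removal of the sex means, Fkbp5 and Foxo1 varied together, with Pearson r = 0.746 and Spearman rho = 0.771 in generation 17 (n = 94) and r = 0.738 and rho = 0.676 in generation 18 (n = 93). The permutation p was 1e-05 for each, the smallest the test can give, and the adjusted p over 12 relations 6e-05 for r and 4e-05 for rho. Without the 2 libraries farthest from the median of Fkbp5 r was 0.747 and 0.740, and within blocks it ran from 0.678 to 0.839 and from 0.691 to 0.818. Dnajb1 and Junb had r = 0.402 and rho = 0.325 (adjusted p = 0.00052 and 0.0045) in generation 17, and r = 0.384 and rho = 0.477 (adjusted p = 0.00063 and 4e-05) in generation 18, with r = 0.257 and 0.392 without the 2 farthest libraries and block ranges of 0.239 to 0.591 and 0.271 to 0.547. The other 8 relations, between Dnajb1 or Junb and Fkbp5 or Foxo1, had r between −0.0687 and 0.153 and rho between −0.0575 and 0.196, with adjusted p of at least 0.338 for r and 0.144 for rho.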
